A study of Homo sapiens with 28 samples.

Results

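The baseline expression of the prostate cancer cell lines PC3 and LNCaP was compared in their normoxic control samples. These are 2 samples of PC3 cells transfected with a control siRNA (siCtrl) and 2 samples of LNCaP cells carrying an empty vector, 4 of the 16 RNA-Seq samples and of the 28 samples of the series. The study asked what the transcription factor ONECUT2 does in prostate cancer, by silencing it in PC3 and overexpressing it in LNCaP, in normoxia and at 0.2% oxygen. Both lines came from ATCC and were sequenced as polyadenylated RNA with a stranded library kit. None of the 4 samples received an agent against a gene. The siRNA was given with Lipofectamine RNAiMAX, while LNCaP received the empty vector, so that cell line, transfection and deposited table change together and cannot be told apart. Nothing in the labels says that the 2 samples of a line were separate cultures, so the p-values measure only the spread between these samples, which may be technical. Of 19662 gene symbols in each table, 12567 (63.9%) had at least 1 RPKM (reads scaled for gene length and library size) in at least 2 of the 4 samples and were tested.

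Normal prostate glands are lined by luminal cells, which secrete kallikreins under androgens, on top of basal cells, which make laminins, integrins and stratified keratins. LNCaP cells were derived from a lymph node metastasis and respond to androgens. PC3 cells were derived from a bone metastasis and grow without them. Androgen response elements are the DNA sites of the hormone response, with FOXA1 and HOXB13 as partner factors. Activator protein 1 (AP-1), a dimer of FOS and JUN proteins, and NF-kB are factors that drive growth, invasion and cytokine genes in many carcinoma cells. The loss of adherens junctions with gain of vimentin and ZEB1 is known as an epithelial to mesenchymal transition.

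The promoters of some genes that separated the lines are shown first, picked by name from those that hold the marked motif. In the RefSeq sequences (GRCh38.p14, 250 bases before to 50 after the start), 9579 of the tested genes had an entry. KLK3 and UGT2B15, both at 0 or near it in PC3, hold the core hexamer of the androgen response element (AGAACA, in capitals). GSTP1, listed at 0 in LNCaP and known for methylation of its CpG-rich promoter in prostate cancer, holds an AP-1 site (TGANTCA, in capitals) and 36 CpG dinucleotides in 300 bases, against a median of 26 over the tested genes and 2 in KLK3. The windows are chr19:50854665-50854964 (plus strand), chr4:68670762-68670881 (minus strand) and chr11:67583562-67583861 (plus strand), each read 5′ to 3′ along the gene.
KLK3: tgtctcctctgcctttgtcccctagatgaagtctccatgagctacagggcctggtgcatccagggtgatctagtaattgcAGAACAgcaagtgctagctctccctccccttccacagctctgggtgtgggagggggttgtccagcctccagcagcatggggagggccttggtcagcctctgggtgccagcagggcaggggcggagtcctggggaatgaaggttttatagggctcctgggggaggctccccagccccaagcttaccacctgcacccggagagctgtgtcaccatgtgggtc
UGT2B15: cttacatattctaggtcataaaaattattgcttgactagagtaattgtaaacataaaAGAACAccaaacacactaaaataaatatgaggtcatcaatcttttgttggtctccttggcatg
GSTP1: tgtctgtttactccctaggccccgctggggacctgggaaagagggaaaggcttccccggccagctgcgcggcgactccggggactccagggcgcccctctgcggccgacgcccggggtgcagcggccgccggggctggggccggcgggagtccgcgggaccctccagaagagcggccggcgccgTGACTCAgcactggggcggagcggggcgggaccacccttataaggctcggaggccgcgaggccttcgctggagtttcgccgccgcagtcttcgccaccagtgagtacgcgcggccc

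PLAUR, the receptor of the plasminogen activator urokinase, and S100A2, a calcium-binding protein of basal cells, were both higher in PC3 and hold an AP-1 site (capitals) at 186 and 52 bases before their start. The windows are chr19:43670292-43670412 and chr1:153565833-153565953, both on the minus strand.
PLAUR: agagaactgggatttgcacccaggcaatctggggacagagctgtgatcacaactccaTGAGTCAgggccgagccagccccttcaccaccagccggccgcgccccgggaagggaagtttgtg
S100A2: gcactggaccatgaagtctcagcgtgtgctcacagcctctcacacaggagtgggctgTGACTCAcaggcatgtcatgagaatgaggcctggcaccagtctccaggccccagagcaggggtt
The chemokine genes CXCL1, CXCL2 and CXCL3 and the cytokine gene IL6 were also higher in PC3, and hold an NF-kB site (GGANTTTCC, capitals) between 72 and 78 bases before the start. The windows are chr4:73869259-73869379 and chr7:22727072-22727192 on the plus strand, and chr4:74099208-74099328 and chr4:74038703-74038823 on the minus strand.
CXCL1: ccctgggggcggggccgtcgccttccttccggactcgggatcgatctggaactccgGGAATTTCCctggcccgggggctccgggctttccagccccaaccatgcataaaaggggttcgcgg
CXCL2: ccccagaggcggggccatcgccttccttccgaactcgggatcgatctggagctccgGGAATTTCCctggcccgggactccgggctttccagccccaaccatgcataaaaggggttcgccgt
CXCL3: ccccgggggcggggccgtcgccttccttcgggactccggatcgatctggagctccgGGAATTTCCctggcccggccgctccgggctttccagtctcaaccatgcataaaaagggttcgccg
IL6: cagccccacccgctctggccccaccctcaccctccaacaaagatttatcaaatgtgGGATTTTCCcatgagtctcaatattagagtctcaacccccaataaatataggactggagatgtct

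Motifs were searched on both strands and counted once per promoter, and none of them is contained in another. The AP-1 motif was in 4.49% of the tested promoters, in 6.42% of those of genes higher in PC3 and in 3.77% of those higher in LNCaP. It was in 7.76% of all 27305 promoters. The hexamer AGAACA was in 8.63% of the tested promoters, 7.72% of those higher in PC3 and 9.58% of those higher in LNCaP, and in 14.9% of all promoters. For the NF-kB motif the shares were 1.59%, 1.93% and 1.16%, with 1.64% of all promoters. Among the inflammatory and NF-kB genes described below, a list named for that factor, 9 of 22 matched promoters (40.9%) held it. AGAACA was in 4 of 23 matched promoters of the androgen list (17.4%) and 4 of 15 of the basal list (26.7%). The 4 of the androgen list include PMEPA1, which was higher in PC3, but not KLK2. The AP-1 motif was in 3 of 24 promoters of the AP-1, YAP and TEAD list, 4 of 15 of the basal list and 0 of 26 of the mesenchymal list. The forkhead motif TGTTTAC was in 2.24% of the tested promoters, 1.76% of those higher in PC3, 2.24% of those higher in LNCaP and 3.41% of all. The Grainyhead motif AACCGGTT had shares of 0.136%, 0.042%, 0.12% and 0.117% in the same order, and the ZEB and SNAI motif CACCTG, in 18.1% of the tested and 20.6% of all promoters, was in 400 of 2382 promoters of genes higher in PC3 and 499 of 2495 of those higher in LNCaP. These are counts of letters in a fixed window and do not show binding.

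With each sample scaled to the same upper quartile, about as many genes were higher in PC3 as in LNCaP, a balance that depends on the scaling. Calls required more than a 2-fold difference with a Benjamini-Hochberg adjusted p under 0.05 (limma, on log2 of the scaled RPKM + 0.1). Of the tested genes, 3256 (25.9%) were higher in PC3 and 3310 (26.3%) were higher in LNCaP, and in every called gene the values of the lines did not overlap. All log2 differences below are PC3 minus LNCaP, and all levels are RPKM divided by a factor that gives each sample the same upper quartile. The median difference over all tested genes was -0.02. A difference over 5 in size was found in 495 genes higher in PC3 and 216 higher in LNCaP. At least 10 scaled RPKM in a line beside under 0.1 in the other was found for 144 genes in PC3 and 60 in LNCaP.

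The samples of a line lay close together. The median absolute log2 difference was 0.16 between the PC3 samples, 0.20 between the LNCaP samples and 1.08 between the means of the lines. Depth is not given by RPKM, but the most frequent ratio between the samples of a line over genes with low values gives a rough estimate. It put PC3 replicate 1 at 0.418 times the reads per RPKM of replicate 2, and LNCaP replicate 1 at 0.828 times those of replicate 2. The peak of the ratios held 109 of 1649 such genes in PC3 and 158 of 2419 in LNCaP. The tables were on different scales, with summed RPKM of 443221 and 480388 in PC3 and 818684 and 871358 in LNCaP, which is why each sample was scaled. Without scaling the median difference moved by -0.85 and 24.4% of calls were higher in PC3, against 49.6% as reported, and scaling to 11 uniformly expressed genes moved it by 0.59, with 69.3% of calls higher in PC3. Of the calls, 1886 higher in PC3 and 2159 higher in LNCaP held under all 4 scalings, a count added after the data were seen. In bulk RNA a smaller number of cells that express a gene and less RNA per cell cannot be told apart. A gene expressed in 1 line alone passes the expression limit through that line, so the counts below describe the tested members of each list and are not evidence that the list as a whole differs. For the same reason the medians and counts of several lists moved by over 1.5 times when 1 sample was left out, since genes of that line then fell below the limit, and both values are given with each such list beside those with the tested members kept, an alternative added after the data were seen. The zero point also matters, and the medians of pan-NET genes, S phase markers and HIF targets turned to -0.58, -0.22 and -0.22 without scaling, while that of the interferon genes turned to 0.52 with scaling to uniform genes.

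**Figure D1:**
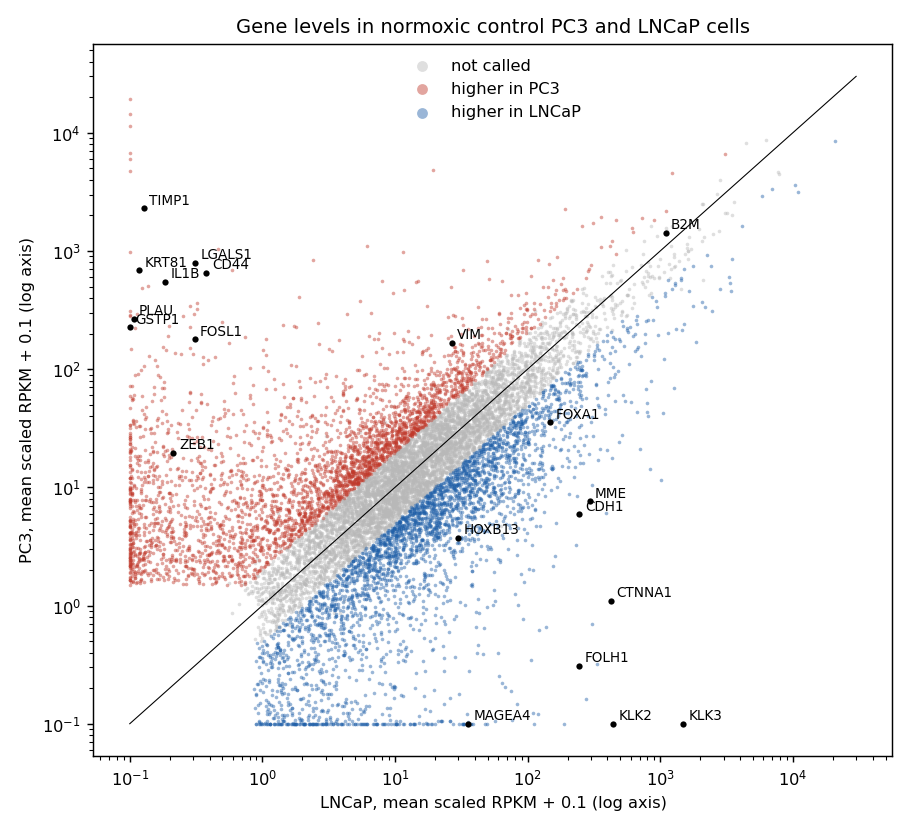
Mean scaled RPKM + 0.1 of each tested gene, without genes of the Y chromosome and XIST, in the 2 LNCaP samples (x axis) and the 2 PC3 samples (y axis), both on log axes, with the line of equality, genes higher in PC3 in red, genes higher in LNCaP in blue, genes not called in grey and some genes named. KLK3 and KLK2 lie at the bottom right with 0 in PC3, TIMP1 and KRT81 at the top left, and VIM and FOXA1 nearer to the line.

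Androgen-induced genes were mainly LNCaP genes. Of 33 tested members of the list, 25 were higher in LNCaP and 4 in PC3, beside 26.3% and 25.9% over all genes, and the median log2 difference was -2.71 beside -0.02. Without LNCaP replicate 1 or 2, when 24 members passed the limit, 15 or 16 of them higher in LNCaP, it was -1.93 or -1.76, and with the 33 members kept 24 were higher and it was -2.66 or -2.79. KLK3, the gene of prostate-specific antigen, had 1477 and 1514 scaled RPKM in LNCaP and was listed at 0 in both PC3 samples. KLK2, its neighbour and a related kallikrein, had 455 and 429 in LNCaP and was also listed at 0 in both PC3 samples. Both had the largest differences of the list, although a fitted log2 value beside a level at or near 0 depends on the pseudocount and is not read as a fold. TMPRSS2, a serine protease gene that is often fused to ETS factors in prostate cancer, had 122 and 121 in LNCaP and 0.393 and 0.637 in PC3, a log2 difference of -7.65 (SE 0.23, adjusted p = 8.75e-06). FOLH1, the gene of prostate-specific membrane antigen, had 245 in each LNCaP sample and 0.0641 and 0.356 in PC3. The samples of the lines did not overlap for any of these genes.

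Other members differed less or went the other way. FKBP5, a chaperone of steroid receptors, had 49.0 and 43.1 scaled RPKM in LNCaP and still 6.96 and 6.88 in PC3 (log2 difference -2.71). SLC45A3, a prostate membrane protein, had 50.7 and 48.6 beside 6.31 and 6.10 (log2 difference -2.98). The members higher in PC3 were ALDH1A3, a retinal dehydrogenase, with a log2 difference of 4.29, the TGF-beta feedback gene PMEPA1 with 2.42, the kinase SGK1 with 2.35 and the stress gene NDRG1 with 1.33. The call of NDRG1 did not hold under all scalings. TSC22D3, a gene also induced by glucocorticoids, had 14.4 and 13.4 in PC3 and 15.1 and 18.3 in LNCaP and was not called (adjusted p = 0.182). The level of the list in PC3 was therefore not uniformly near 0.

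Luminal factors were higher in LNCaP, though most were also present in PC3. Of 23 tested luminal genes 15 (65.2%) were higher in LNCaP and 3 (13.0%) in PC3 (median -2.06), beside 26.3% and 25.9% over all genes. FOXA1, a pioneer factor that opens chromatin, had 148 and 147 scaled RPKM in LNCaP and 34.1 and 36.6 in PC3, a log2 difference of -2.06 (SE 0.10, adjusted p = 3.3e-05). HOXB13, a homeobox factor of the prostate, had 27.5 and 31.9 beside 3.88 and 3.39 (log2 difference -2.997). GATA2, a zinc finger factor, had 42.6 and 41.4 beside 4.16 and 3.98 (log2 difference -3.34), and the ETS factor SPDEF had 17.6 and 24.2 beside 5.12 and 5.76 (log2 difference -1.91). Each of these 4 factors was above 1 RPKM in PC3. Nearer to absence in PC3 were the epithelial factors EHF, with 117 and 93.8 in LNCaP and 0.220 and 0.266 in PC3, and GRHL2, with 20.5 and 17.7 beside 0.307 and 0.355. The luminal keratin KRT18 was higher in LNCaP (log2 difference -2.06), while its partner KRT8 had 100 and 88.6 in PC3 and 153 and 177 in LNCaP and missed the fold limit (log2 difference -0.80, 95% interval -1.12 to -0.48). The exceptions were KRT19 (log2 difference 5.52), GATA3 (5.88) and the secreted chaperone clusterin, CLU (4.39), all higher in PC3.

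**Figure D2:**
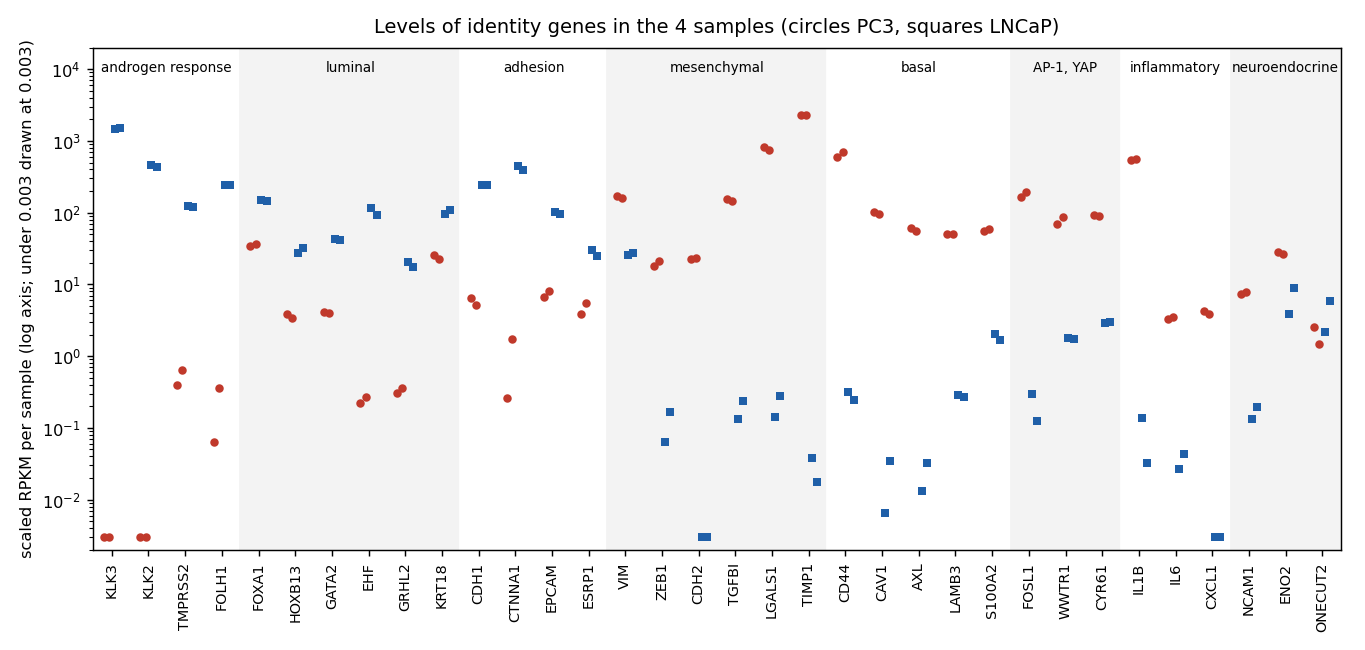
Scaled RPKM per sample (log axis, levels under 0.003 drawn at 0.003) of named genes in the groups in which they are described, with PC3 samples as red circles and LNCaP samples as blue squares. LNCaP lies above PC3 for the androgen, luminal and adhesion genes shown and PC3 above LNCaP for the mesenchymal, basal, AP-1, YAP and inflammatory genes shown, while ONECUT2 overlaps.

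Genes of epithelial adhesion followed the luminal genes. Of 35 tested members 26 (74.3%) were higher in LNCaP and 2 (5.71%) in PC3, beside 26.3% and 25.9% over all genes. The median was -2.53. CDH1, which encodes E-cadherin, the transmembrane part of adherens junctions, had 245 and 247 scaled RPKM in LNCaP and 6.46 and 5.18 in PC3 (log2 difference -5.38, SE 0.14, adjusted p = 7.33e-06). CTNNA1, or alpha-catenin, which ties cadherins to actin, had 451 and 397 in LNCaP and 0.260 and 1.74 in PC3 (log2 difference -9.02, SE 0.73, adjusted p = 0.000178). CTNNB1, or beta-catenin, which links the cadherin and alpha-catenin, went the other way, with 76.3 and 74.5 in PC3 and 30.3 and 31.4 in LNCaP (log2 difference 1.29, a call that did not hold under all scalings). EPCAM, an epithelial adhesion molecule, had 102 and 95.6 in LNCaP and 6.64 and 8.02 in PC3. The splicing regulators ESRP1 and ESRP2, which set epithelial exons, had log2 differences of -2.54 and -2.50, and the vesicle regulator RAB25 of -7.90. Plakophilin 1, PKP1, a desmosomal protein of stratified epithelia, was the other member higher in PC3, with 27.3 and 26.0 beside 0.140 and 0.216. Of the claudins, tight junction proteins, 7 of 23 were tested. CLDN3, CLDN7 and CLDN8 were higher in LNCaP and CLDN11 in PC3 (log2 difference 5.66). DSG2, a desmosomal cadherin, had 23.6 and 24.97 beside 23.9 and 20.6 and was not called.

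Mesenchymal genes showed the reverse. Of 39 tested members of 46, 31 (79.5%) were higher in PC3 and 0 in LNCaP, beside 25.9% and 26.3% over all genes. The median was 5.20. Without PC3 replicate 1 or 2 only 18 members passed the limit, 11 or 10 of them were higher in PC3 and the median was 1.43 or 1.41, whereas with the 39 members kept the counts were 32 and 31 and the medians 5.47 and 5.23. VIM, the intermediate filament of mesenchymal cells, had 172 and 160 scaled RPKM in PC3 and 25.4 and 27.8 in LNCaP, a log2 difference of 2.64 (SE 0.11, adjusted p = 1.95e-05). LNCaP thus also carried VIM RNA at a moderate level. ZEB1, a repressor of CDH1, had 18.2 and 21.1 in PC3 and 0.0628 and 0.165 in LNCaP (log2 difference 6.57, SE 0.29, adjusted p = 2.16e-05). CDH2, or N-cadherin, had 22.6 and 23.6 in PC3 and was listed at 0 in both LNCaP samples, as was CDH11, with 42.6 and 51.1. The factor SNAI2 differed less, with 9.28 and 9.70 beside 3.41 and 3.14 (a call that did not hold under all scalings), and TWIST1 was not called, with 6.74 and 6.05 beside 6.09 and 5.55 (log2 difference 0.13, 95% interval -0.29 to 0.55). The transition factors thus differed to unequal extents.

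Secreted and cytoskeletal members of the list had the highest levels. TIMP1, an inhibitor of matrix metalloproteinases, had 2280 and 2304 scaled RPKM in PC3 and 0.0380 and 0.0178 in LNCaP, and LGALS1, or galectin 1, had 833 and 748 beside 0.143 and 0.277. The values of LNCaP lie below or near the pseudocount, so their log2 differences (14.13 and 11.35) depend on it. S100A6, a calcium-binding protein, had 308 and 278 in PC3 and 0 and 0.0262 in LNCaP, and ANXA1, a membrane-binding annexin, had 225 and 233 beside 1.64 and 1.75. TGFBI, a matrix protein induced by TGF-beta, had 156 and 146 beside 0.135 and 0.239. Members that were not called include fibronectin, FN1, with 40.3 and 40.8 in PC3 and 56.9 and 44.2 in LNCaP (adjusted p = 0.119) and collagen COL1A1, with 3.42 and 4.71 beside 5.71 and 5.61 (adjusted p = 0.0872).

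Integrins, the receptors that hold cells to the matrix, were also PC3 genes. Of 15 tested integrin genes of 26, 13 (86.7%) were higher in PC3 and 0 in LNCaP, beside 25.9% and 26.3% over all genes. All 13 calls held under the 4 scalings. Of the 11 that passed the limit without either PC3 sample, 9 were higher in PC3. ITGB1, the beta subunit shared by many receptors, had 1928 and 1940 scaled RPKM in PC3 and 413 and 306 in LNCaP. ITGB3, which pairs with ITGAV to bind vitronectin, had 66.3 and 73.3 in PC3 and 0.0855 and 0.0739 in LNCaP (log2 difference 8.60, SE 0.18, adjusted p = 6.46e-06). ITGAV itself had 30.7 and 30.4 beside 19.1 and 15.2 and missed the fold limit, so the pair differed mainly in its beta subunit. ITGA2 and ITGA3, which form collagen and laminin receptors, had log2 differences of 4.95 and 5.40.

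Most of the tested basal genes were higher in PC3, although TP63 and KRT5 were not tested. Of 21 tested members of 30, 16 (76.2%) were higher in PC3 and 3 (14.3%) in LNCaP, beside 25.9% and 26.3% over all genes. The median was 3.71. Leaving out PC3 replicate 1 or 2 left 12 members, 7 of them higher in PC3, and a median of 1.73 or 1.44, against 16 higher in PC3 and 3.88 or 3.66 with the 21 members kept. The laminin chain LAMB3, which pairs with LAMA3 in the laminin of the basement membrane, had 50.8 and 51.1 scaled RPKM in PC3 and 0.290 and 0.273 in LNCaP. LAMA3, in contrast, had 46.5 and 52.1 in PC3 and 62.5 and 63.1 in LNCaP and was not called. CD44, a hyaluronan receptor, had 604 and 708 beside 0.315 and 0.242 (log2 difference 10.76, SE 0.17, adjusted p = 3.58e-06), and CAV1, or caveolin 1, had 100.9 and 96.2 beside 0.00659 and 0.0347. S100A2 had 55.7 and 58.7 beside 2.01 and 1.70 (log2 difference 4.88). The defining factor of basal cells, TP63, was listed at 0 in all 4 samples, and the basal keratin KRT5 had between 0.227 and 0.272 in all 4, so neither was tested. The 3 members higher in LNCaP were the membrane peptidase MME, with 297 and 290 beside 9.08 and 5.94, the cytokine receptor IL1R1 and the TRIM protein TRIM29. EGFR, the epidermal growth factor receptor, had 9.97 and 11.5 in PC3 and 7.43 and 6.44 in LNCaP and missed the fold limit (log2 difference 0.62, 95% interval 0.20 to 1.04).

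Across all keratins, 15 of 55 were tested, 11 were higher in PC3 and 3 in LNCaP. Only 5 passed the limit without PC3 replicate 1 or 2, and 1 of these was higher in PC3, against 11 of 15 with the tested members kept. KRT7, a keratin of simple epithelia, had 325 and 320 scaled RPKM in PC3 and 0.287 and 0.154 in LNCaP. The keratins KRT81, KRT83, KRT84, KRT85 and KRT86, which are known from hair and lie in a cluster with similar sequences, were all higher in PC3. KRT81 had 690 and 680 beside 0.0300 and 0.00470, and KRT86 had 59.6 and 50.7 beside 0.00391 and 0.00324. Reads of these near-identical genes may be divided uncertainly between them. KRT10, KRT18 and KRT6C were the members higher in LNCaP.

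The AP-1, YAP and TEAD genes were mostly higher in PC3. Of 35 tested members 27 (77.1%) were higher in PC3 and 1 (2.86%) in LNCaP, beside 25.9% and 26.3% over all genes. The median was 3.96. Without PC3 replicate 1 or 2 the limit left 23 members, 15 of them higher in PC3, and a median of 1.797 or 1.95, and with the 35 members kept these were 27 and 3.92 or 3.84. FOSL1, the FOS family member FRA1, had 166 and 191 scaled RPKM in PC3 and 0.293 and 0.123 in LNCaP, a log2 difference of 9.24 (SE 0.30, adjusted p = 1.02e-05). FOSL2 had 15.9 and 18.7 beside 3.88 and 2.55 (log2 difference 2.42). None of the 3 JUN genes was called. JUN had 18.8 and 17.9 beside 20.6 and 21.7, and JUND had 21.5 and 20.2 beside 21.7 and 36.9 (adjusted p = 0.17 and 0.18). JUNB had 11.6 and 11.4 beside 9.25 and 8.52 (adjusted p = 0.0591). ATF3, a stress-induced factor of the same family, was the member higher in LNCaP, with 52.9 and 47.2 beside 2.55 and 3.22.

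Of the coactivators of TEAD factors, YAP1 had 26.7 and 27.8 scaled RPKM in PC3 and 20.2 and 19.3 in LNCaP and missed the fold limit (log2 difference 0.46, 95% interval 0.17 to 0.75). WWTR1, or TAZ, had 70.6 and 87.4 beside 1.82 and 1.75 (log2 difference 5.39, SE 0.16, adjusted p = 8.88e-06). The known targets CYR61 and CTGF, which encode matricellular proteins, had log2 differences of 4.91 and 6.195. Feedback regulators of the MAP kinase pathway went the same way. DUSP6, a phosphatase of ERK, had 106 and 114 beside 0.116 and 0.398, and SPRY4, an inhibitor of receptor kinases, had 14.5 and 13.4 beside 0.243 and 0.253. The ETS factors ETS1 and ETV5 had log2 differences of 6.13 and 6.38.

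Most of the tested inflammatory and NF-kB genes were higher in PC3. Of 29 tested members of 35, 21 (72.4%) were higher in PC3 and 3 (10.3%) in LNCaP, beside 25.9% and 26.3% over all genes. A further 5 were not called, and the median of the 29 was 2.47. With PC3 replicate 1 or 2 left out, 10 of the 18 members that passed were higher in PC3 and the median was 1.26 or 1.42, while with the 29 members kept 21 were higher and it was 2.38 or 2.46. IL1B, the cytokine interleukin 1 beta, had 539 and 558 scaled RPKM in PC3 and 0.135 and 0.0325 in LNCaP (log2 difference 11.60, SE 0.29, adjusted p = 7.05e-06). IL6, another cytokine, had 3.25 and 3.55 beside 0.0264 and 0.0438, and the chemokine CXCL1 had 4.21 and 3.85 and was listed at 0 in both LNCaP samples. LIF, a cytokine of the IL6 family, had 74.4 and 70.8 beside 4.25 and 4.79 (log2 difference 3.98). ICAM1, an adhesion receptor for leukocytes, had 21.3 and 18.6 beside 0.0540 and 0.0662. RELA, the main activating subunit of NF-kB, was among the 3 members higher in LNCaP, with 127 and 141 beside 27.3 and 39.5 (log2 difference -2.02, SE 0.20, adjusted p = 0.000348). The other two were the chemokine CCL20, with 1.36 and 1.32 beside 0.714 and 0.317, and BIRC3, an inhibitor of apoptosis, with a log2 difference of -1.27, and neither of these calls held under all scalings. RELB, a related subunit, went the other way (log2 difference 2.42), and NFKB1, NFKB2, CFB and the inhibitor NFKBIA were not called. LCN2, or lipocalin 2, had 1.70 and 1.69 in PC3 and 0.896 and 0.768 in LNCaP and missed the fold limit (log2 difference 0.95, 1.04 and called without LNCaP replicate 1).

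Genes of the plasminogen system and of matrix and cell surface proteolysis went in both directions. Of 26 tested members of 33, 12 (46.2%) were higher in PC3 and 7 (26.9%) in LNCaP, beside 25.9% and 26.3% over all genes, with a median of 0.90. This median was 0.08 without scaling, and it turned to -0.63 without PC3 replicate 1 and -0.52 without PC3 replicate 2, when 5 members were higher in PC3, against 0.88 and 0.91 and 13 members with the 26 kept. Without LNCaP replicate 1 or 2 it was 1.56 or 1.78, and 0.78 or 1.01 with the 26 kept. PLAU, or urokinase, had 263 and 271 scaled RPKM in PC3 and 0.0139 and 0 in LNCaP, and its receptor PLAUR had 66.1 and 70.1 beside 0.759 and 1.19 (log2 difference 6.02, SE 0.23, adjusted p = 1.53e-05). MMP14, a membrane-bound matrix metalloproteinase, had 68.9 and 70.6 beside 0.0874 and 0.0623. Some serine proteases of epithelial membranes were among the members higher in LNCaP. HPN, or hepsin, had 27.6 and 37.1 in LNCaP and was listed at 0 in both PC3 samples, ST14 had 104.9 and 112 beside 4.92 and 5.96, and PRSS8 had 36.3 and 44.4 beside 0.558 and 0.563.

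Growth factor receptors differed between the lines gene by gene. Of 31 tested members of 46, 16 (51.6%) were higher in PC3 and 5 (16.1%) in LNCaP, beside 25.9% and 26.3% over all genes. The median was 1.18. Without PC3 replicate 1 or 2, 7 of the 22 members that passed were higher in PC3 and the median was 0.41 or 0.50, against 16 and 1.09 or 1.12 with the 31 members kept. AXL, the receptor of GAS6, had 62.0 and 55.2 scaled RPKM in PC3 and 0.0130 and 0.0323 in LNCaP. MET, the receptor of hepatocyte growth factor, had 13.6 and 10.6 beside 0.208 and 0.116 (log2 difference 5.55, SE 0.26, adjusted p = 2.8e-05). The related receptor MST1R had 16.8 and 8.75 beside 0.206 and 0.396. The ERBB receptors that were called lay on the LNCaP side. ERBB3 had 62.8 in each LNCaP sample and 7.44 and 4.29 in PC3 (log2 difference -3.45), and ERBB2 had 31.6 and 36.5 beside 16.4 and 9.93, a call that did not hold under all scalings or without LNCaP replicate 1 or 2 (log2 difference -1.50 and -1.29). Among proteins that bind insulin-like growth factors, IGFBP4 had 222 and 220 in PC3 and 0 and 0.0184 in LNCaP, IGFBP6 had 90.4 and 91.6 beside 0 and 0.0313, and IGFBP3 was higher in LNCaP in normoxia, with 45.6 and 35.1 beside 10.9 and 11.9. Of the ligands of EGFR, TGFA had 7.40 and 8.12 in PC3 and 0.836 and 0.877 in LNCaP. HBEGF had 3.64 and 3.91 in PC3 and 1.28 and 1.78 in LNCaP (a call that did not hold under all scalings), and AREG and EREG did not reach the expression limit.

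HOX genes, which specify position along the body axis, were expressed in different sets. Of 23 tested members of 39, 16 (69.6%) were higher in PC3 and 3 (13.0%) in LNCaP, beside 25.9% and 26.3% over all genes. The median was 3.39. With PC3 replicate 1 or 2 left out 11 members passed, 5 or 4 of them were higher in PC3 and the median was 0.76 or 0.78, and with the 23 members kept 16 were higher and the median was 3.50 or 3.44. HOXB9 had 34.4 and 38.3 scaled RPKM in PC3 and 2.68 and 2.396 in LNCaP, and HOXA9 had 20.9 and 19.9 beside 0.969 and 0.820. The posterior genes HOXA11, with 5.54 and 5.49, and HOXA13, with 2.69 and 2.42, were both near 0 in LNCaP. In the HOXB cluster, HOXB3, HOXB5, HOXB6, HOXB7 and HOXB9 were higher in PC3, while HOXB13, which lies at the end of that cluster, was higher in LNCaP. HOXC6 had 12.8 and 13.9 in PC3 and 28.3 and 28.4 in LNCaP (log2 difference -1.08, a call that did not hold under all scalings), and HOXC12 was near 0 in PC3 and had 1.20 and 1.41 in LNCaP.

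**Figure D3:**
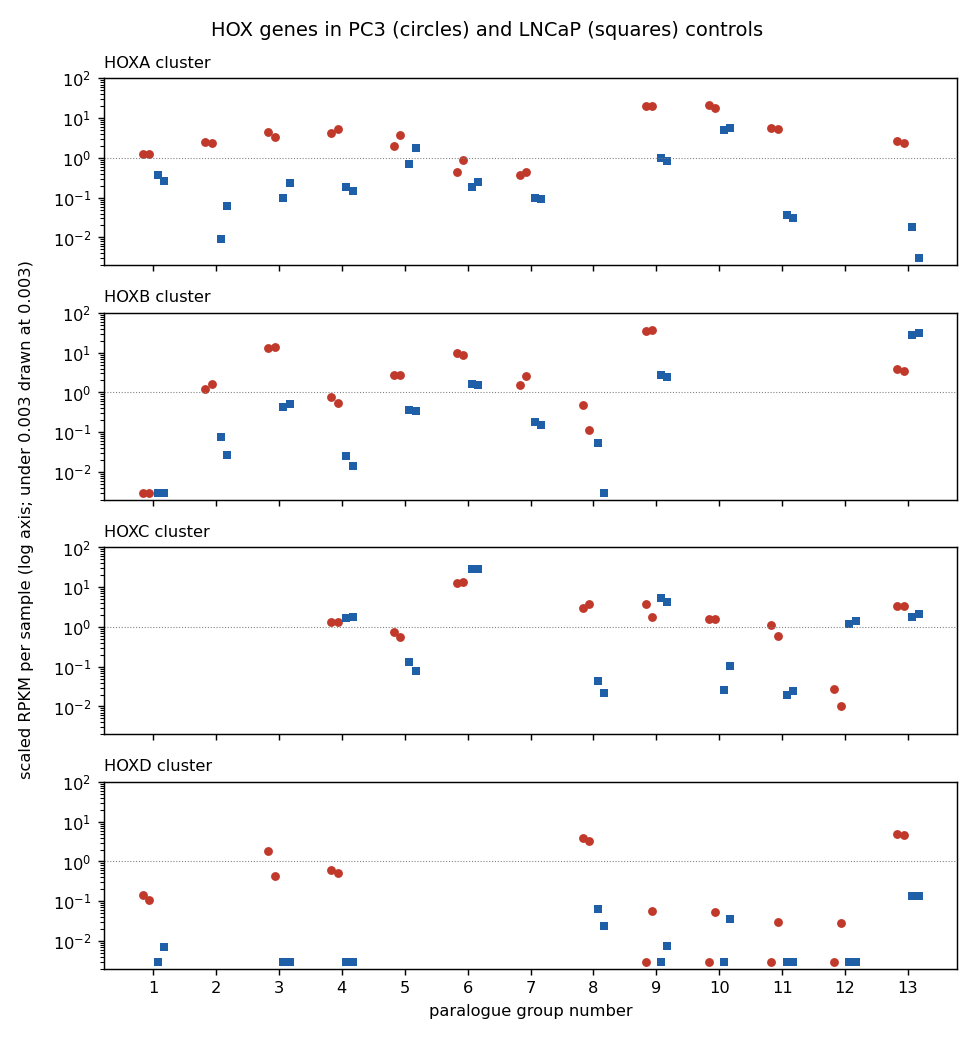
Scaled RPKM per sample (log axis, levels under 0.003 drawn at 0.003) of the HOX genes by paralogue group number, with a panel per cluster, PC3 samples as red circles, LNCaP samples as blue squares and a dotted line at 1. PC3 lies above LNCaP for most genes of the HOXA, HOXB and HOXD panels, while HOXB13, HOXC6 and HOXC12 are reversed.

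Several classical markers of neuroendocrine cells, the outcome studied with ONECUT2, were low in both lines. Of 37 markers and factors 20 were tested, 13 were higher in PC3 and 3 in LNCaP (median 2.67). The median was 0.48 with no limit on low values. Without PC3 replicate 1 or 2 it was 0.76 or 0.85, with 7 of 14 members higher in PC3, and with the 20 members kept 2.65 or 2.69, with 13. The markers CHGA (0.0192 to 0.134), SYP (0.347 to 1.31) and INSM1 (0 to 0.0323) did not pass the limit. Of the members higher in PC3, ENO2, a glycolytic enzyme used as a neuronal marker, had 28.2 and 26.3 scaled RPKM beside 3.82 and 8.81, NCAM1, a neural adhesion molecule, had 7.40 and 7.92 beside 0.133 and 0.194, and PEG10, a gene of retroviral origin, had 96.0 and 109 beside 8.49 and 7.78 (log2 difference 3.64, SE 0.13, adjusted p = 1.19e-05). FOXA2, a forkhead factor, had 4.02 and 4.11 beside 0.00671 and 0. The list also holds factors that are not neuroendocrine markers and that were higher in PC3, namely the silencer of neuronal genes REST (28.0 and 31.4 beside 11.1 and 9.26, a call that did not hold under all scalings), SMAD3 (85.7 and 96.8 beside 5.88 and 5.93), and the hypoxia factors HIF1A (522 and 612 beside 166 and 143) and EPAS1 (log2 difference 4.43).

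ONECUT2 itself was low in both lines and was not called, with 2.54 and 1.48 scaled RPKM in PC3 and 2.14 and 5.83 in LNCaP. The ranges overlapped (log2 difference -0.84, 95% interval -2.14 to 0.47, adjusted p = 0.192). Of the 88 pan-NET genes that the study selected as shared by neuroendocrine tumours, 29 were tested. Of these, 13 (44.8%) were higher in PC3 and 8 (27.6%) in LNCaP, beside 25.9% and 26.3% over all genes, with a median of 0.27. The sign of this median was not stable. It was -0.58 without scaling, -0.74 and -1.05 without PC3 replicate 1 and 2, with 3 members higher in PC3 each time, and 1.87 and 2.35 without LNCaP replicate 1 and 2, with 2 and 1 higher in LNCaP, while with the 29 members kept it ran from 0.14 to 0.40 over these 4 samples. SIX2, a homeobox factor, had 11.7 and 10.3 in PC3 and 0.0369 and 0.0428 in LNCaP, and TAGLN3, a cytoskeletal protein of neurons, had 9.57 and 9.68 and was listed at 0 in both LNCaP samples. SYT4, a synaptotagmin of secretory vesicles, went the other way, with 14.1 and 11.5 in LNCaP and 0 in both PC3 samples.

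Some genes known to be altered in PC3 or LNCaP were examined by name. JAK1, a kinase of cytokine receptors that is mutated in LNCaP, had 22.5 and 23.0 in PC3 and 3.97 and 1.54 in LNCaP. CTNNA1 lies at chromosome 5, 137946656 to 138270723 (GRCh37), and is known to carry a deletion in PC3. The upstream neighbour HSPA9, a mitochondrial chaperone, had 142 and 153 scaled RPKM in PC3 and 677 and 656 in LNCaP, and ETF1, a translation release factor, had 63.0 and 55.5 beside 67.1 and 70.6, so that both were present in PC3. The downstream neighbour SIL1, a chaperone factor, was low in PC3, with 4.24 and 4.67 beside 80.8 and 86.9 in LNCaP. GSTP1, a glutathione transferase (chromosome 11, 67351213 to 67354127), had 243 and 210 in PC3 and was listed at 0 in both LNCaP samples, while its neighbour NDUFV1, a subunit of respiratory complex I, had 91.1 and 80.5 beside 148 and 168. ETV4 had 78.0 and 93.3 in PC3 and 0.0265 and 0.110 in LNCaP, whereas ETV1, the ETS factor that is rearranged in LNCaP, had 63.0 and 67.4 in PC3 and 101.1 and 99.9 in LNCaP and missed the fold limit (log2 difference -0.62, 95% interval -0.88 to -0.37).

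Interferon and antigen presentation genes went in both directions. Of 48 tested members 14 (29.2%) were higher in PC3 and 18 (37.5%) in LNCaP, beside 25.9% and 26.3% over all genes. The median was -0.08. Among those higher in LNCaP, IFIT1 had 43.1 and 38.2 scaled RPKM in LNCaP beside 8.54 and 8.59 in PC3, IFI6 had a log2 difference of -2.70 and IFI44 of -3.14. Relatives of such genes were higher in PC3, with log2 differences of 2.08 for IFIT5 and 3.05 for IFITM2. ISG15 had 36.4 and 39.1 in PC3 and 35.6 and 44.9 in LNCaP and was not called (log2 difference -0.08, 95% interval -0.46 to 0.29). Of the antigen presentation genes, HLA-B had 143 and 128 in PC3 beside 24.1 and 30.2 in LNCaP (log2 difference 2.32). The immunoproteasome subunits PSMB8 and PSMB9 had log2 differences of 3.25 and 2.24, and the transporter TAP1 of 1.27, a call that did not hold under all scalings. HLA genes share near-identical stretches, so their values are uncertain. B2M, the light chain of these complexes, had 1401 and 1433 beside 1163 and 1031 and missed the fold limit.

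Among signal transducers, STAT3, which carries the IL6 signal to the nucleus, had 34.9 and 29.3 scaled RPKM in LNCaP and was listed at 0 in both PC3 samples. STAT2, an interferon transducer, was not called. It had 23.9 ± 0.567 beside 25.9 ± 1.29 (mean ± SD, n = 2 each). Of 89 tested transcription factors in the lists 12 had a difference within 0.5 and those with the highest levels include SREBF2, JUND, STAT2 and IRF9. SREBF2, the regulator of cholesterol synthesis, had 30.5 and 24.9 in PC3 beside 26.9 and 25.8 in LNCaP (95% interval of the log2 difference -0.29 to 0.42).

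Steroid and retinoid metabolism genes went in both directions. Of 26 tested members of 41, 12 (46.2%) were higher in LNCaP and 8 (30.8%) in PC3, the latter near the 25.9% of all genes, with a median of -0.73. It was -0.20 with no limit on low values and -0.14 with scaling to uniform genes. Without LNCaP replicate 1 or 2 it turned to 0.56 or 0.44, with 5 or 4 of 18 members higher in LNCaP, and without PC3 replicate 1 or 2 it was -1.29 or -1.24, but with the 26 members kept it ran from -0.76 to -0.69. The glucuronosyltransferases, which inactivate androgens, were LNCaP genes. UGT2B15 had 63.3 and 50.2 scaled RPKM in LNCaP and 0 and 0.00963 in PC3, UGT2B17 had 34.1 and 36.2 beside 0 and 0.00844, and UGT2B10, UGT2B11 and UGT2B28 had between 5.50 and 17.2 in LNCaP and 0 or near it in PC3. These genes are near-identical copies, so the split of reads between them is uncertain. HSD17B4, of peroxisomal fatty acid oxidation, had 1455 and 1565 in LNCaP and 243 and 241 in PC3 (log2 difference -2.64, SE 0.11, adjusted p = 2.07e-05). CYP1B1, a cytochrome that oxidises estrogens, had 21.2 and 25.1 in PC3 and was listed at 0 in both LNCaP samples, and the reductase AKR1C3 had 2.03 and 2.55 beside 0.213 and 0.489. SRD5A1, which makes dihydrotestosterone, had 4.50 and 4.67 beside 7.62 and 6.58 and missed the fold limit.

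Lipid and polyamine genes were higher in LNCaP more often than in PC3. Of 35 tested members 20 (57.1%) were higher in LNCaP and 6 (17.1%) in PC3, beside 26.3% and 25.9% over all genes. Of these calls 14 and 5 held under all scalings, and the median of the list was -1.12. The median was -0.53 with scaling to uniform genes. FASN, or fatty acid synthase, had 69.6 and 99.6 scaled RPKM in LNCaP and 9.55 and 8.91 in PC3 (log2 difference -3.16, SE 0.19, adjusted p = 6.56e-05). AMACR, a racemase used as a prostate cancer marker, had 54.1 and 44.03 beside 2.999 and 3.17, and GLYATL1, a glycine acyltransferase, had 147 and 127 beside 0.385 and 0.730. SCD, the stearoyl desaturase, had 130 in each LNCaP sample and 59.3 and 65.0 in PC3 (log2 difference -1.07, a call that did not hold under all scalings or without PC3 replicate 1). ODC1, the first enzyme of polyamine synthesis, had 118 and 110 in PC3 and 111 and 123 in LNCaP (log2 difference -0.04, 95% interval -0.31 to 0.24). In PC3, OAT, the ornithine aminotransferase, had 62.9 and 71.6 beside 4.40 and 3.76, and the cholesterol synthesis gene SQLE had a log2 difference of 2.13.

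The X-linked cancer-testis genes that passed the limit, a family normally silent outside the germ line, were found in LNCaP and were at 0 or near it in PC3. Of 35 listed genes 16 were tested, all 16 were higher in LNCaP, beside 26.3% over all genes, and all 16 calls held under the 4 scalings. These genes passed the expression limit through LNCaP alone, so their direction was nearly fixed by the limit. Without LNCaP replicate 1 or 2 none of them passed it. With the 16 kept the median log2 difference was then -6.505 or -6.019, beside -6.32 with all samples. MAGEA4 had 37.5 and 33.6 scaled RPKM in LNCaP, MAGEA3 had 31.1 and 33.6, and GAGE1 had 23.7 and 30.5, all listed at 0 in both PC3 samples. The summed level of the list was 0.768 and 0.600 in PC3 and 218 and 238 in LNCaP. Members of these families are near-identical, so the level of a member is uncertain, and 18 further genes of the list did not pass the limit, PAGE4 among them with 0.296 and 0.305 in LNCaP. SPANXC was the reverse, with 0.528 and 0.393 in PC3 and 0 in both LNCaP samples, and made up most of the PC3 sums.

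G2/M markers were more often higher in PC3 than in LNCaP, and S phase markers were near the shares of all genes in PC3. Of 54 tested G2/M markers 25 (46.3%) were higher in PC3 and 4 (7.41%) in LNCaP (median 0.87), and of 40 S phase markers 12 (30.0%) and 7 (17.5%) were (median 0.65), beside 25.9% and 26.3% over all genes. Under all 4 scalings only 9 and 2, and 4 and 4, of these calls held, and the G2/M median was 0.01 without scaling. AURKA, a mitotic kinase, had 138 and 139 scaled RPKM in PC3 and 17.0 and 14.6 in LNCaP (log2 difference 3.12, SE 0.12, adjusted p = 1.6e-05), and UBE2C, of the anaphase ubiquitin ligase, had 546 and 558 beside 66.4 and 61.5. Other general markers differed less. TOP2A, a topoisomerase of dividing cells, had 189 and 179.8 beside 97.3 and 73.1 (log2 difference 1.13, a call that did not hold under all scalings or without LNCaP replicate 2). MKI67 had 17.5 and 21.2 beside 14.9 and 13.0 (log2 difference 0.47, 95% interval 0.07 to 0.87) and CDK1, the mitotic cyclin-dependent kinase, had 169 and 166 beside 157 and 125 (log2 difference 0.26, 95% interval -0.10 to 0.61). CBX5, a heterochromatin protein, was higher in LNCaP (log2 difference -1.84).

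HIF targets in normoxia were mixed. Of 30 tested members of 34, 11 (36.7%) were higher in PC3 and 8 (26.7%) in LNCaP, with a median of 0.64. The shares over all genes were 25.9% and 26.3%, so the LNCaP share was near that of all genes. Of the HIF target calls, 7 in PC3 and 5 in LNCaP held under all scalings. The angiogenic factor VEGFA had 198 and 217 scaled RPKM in PC3 and 90.2 and 92.2 in LNCaP, and the glucose transporter SLC2A1 had 22.7 ± 0.973 beside 8.65 ± 2.56 (mean ± SD, n = 2 each). Neither call held under all scalings. ADM and ANGPTL4, secreted regulators of vessels and of lipid uptake, had 3.38 and 2.69, and 4.61 and 2.38, in PC3, and less than 1 in LNCaP. Of the glycolytic enzymes, HK1 (81.4 and 67.0 in LNCaP, 6.96 and 5.15 in PC3) and PGK1 (286 and 312 in LNCaP, 32.3 and 39.2 in PC3) were higher in LNCaP, while LDHA (1237 and 1170 in PC3, 775 and 744 in LNCaP) was not called. CA9 did not pass the limit.

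Controls for scaling and for other cell types were as follows. Of 11 genes described as uniform across tissues, 5 (45.5%) were higher in LNCaP and 1 (9.09%) in PC3. The shares over all genes were 26.3% and 25.9%, and the median of the 11 was -0.98. RAB7A, a GTPase of late endosomes, had 152 and 245 scaled RPKM in PC3 and 631 and 663 in LNCaP, while C1orf43 had 156 and 157 beside 156 and 174 (log2 difference -0.08, 95% interval -0.35 to 0.20). The upper quartile and these genes therefore give different zero points. Of 21 markers of other cell types 20 were analysed and 4 passed the limit, with summed levels over the list of 57.4 and 70.7 in PC3 and 37.5 and 34.5 in LNCaP. The largest share of these sums came from CD68, a lysosomal protein that is not restricted to macrophages, with 48.6 and 61.0 in PC3 and 25.6 and 21.3 in LNCaP (a call that did not hold under all scalings). PTPRC, CD3E, DCN, DES and HBB were at 0 in all 4 samples. VWF, an endothelial marker, had 1.59 and 2.12 in LNCaP and 0.00983 and 0.0110 in PC3.

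**Figure D4:**
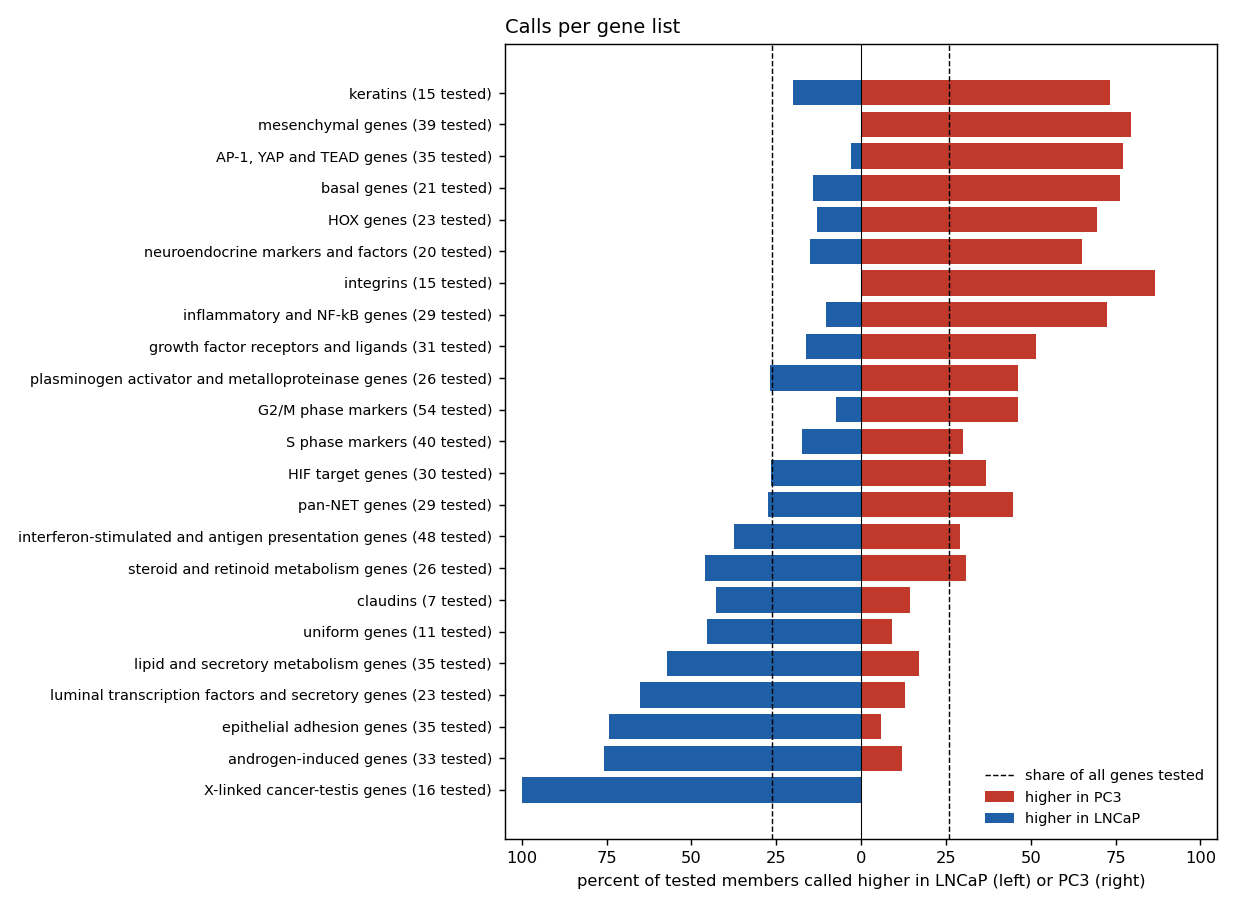
Percent of the tested members of each list called higher in LNCaP (blue bars, to the left of 0) or in PC3 (red bars, to the right), ordered by the median log2 difference of the list, with dashed lines at the shares of all tested genes. Integrins and mesenchymal genes have no bar to the left, and cancer-testis genes reach 100% on the left.

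The largest differences over all genes included genes outside the lists. Beside TIMP1 and KRT81, the genes with the largest differences towards PC3 were HIST1H3C, a replication histone, with 981 and 970 scaled RPKM and 0 in both LNCaP samples, and SPP1, the bone matrix protein osteopontin, with 459 and 518 beside 0.0477 and 0. Towards LNCaP, beside KLK3, KLK2 and FOLH1, they were PICALM, a clathrin assembly protein, and RAB5C, a GTPase of early endosomes, both at 0 in PC3, the stress gene NUPR1 (275 in each LNCaP sample beside 0.0321 and 0.0913), the matrix protein SPON2 (292 and 378 beside 0.295 and 0.148), TMEM125, the decarboxylase DDC (51.4 and 170 beside 0 and 0.0461) and the membrane protein TMEFF2 (70.1 and 82.5 beside 0 and 0.0132). Histone genes have many near-identical copies and mostly lack poly(A) tails, so the value of HIST1H3C is uncertain.

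A further 6 genes of the largest differences are mitochondrially encoded and rest on values listed at exactly 0. MT-ATP8, MT-CO1, MT-CO3, MT-ND4L, MT-ND4 and MT-ATP6 had 4108 to 22770 scaled RPKM in the PC3 samples and were listed at 0 in both normoxic LNCaP samples. In hypoxic LNCaP samples the same genes had 5332 to 87330, and in normoxic LNCaP MT-CO2 had 18160 and 23530. An exact 0 beside such values can be a failed estimate, so no fold is given. Over all tested genes 13 were at 0 in both samples of a line while another sample of that line had at least 1 RPKM, and all 13 were called. Without these and the 23 genes at 0 in 1 of a pair, 3246 genes were higher in PC3 and 3307 in LNCaP, an alternative added after the data were seen.

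The genes with the highest levels, apart from mitochondrially encoded ones, were partly shared. Of the remaining genes the highest in PC3 were MTRNR2L12, TXNRD1, RPS24, EIF4G2 and MTRNR2L8, and in LNCaP RPL26, TXNRD1, RPS24, RPL27A and EEF2. TXNRD1, or thioredoxin reductase, had 10690 and 6728 scaled RPKM in PC3 and 6250 and 6388 in LNCaP and was not called (adjusted p = 0.203). RPL26, a protein of the large ribosomal subunit, had 11420 and 10330 in LNCaP and 2954 and 3386 in PC3 (log2 difference -1.78). MTRNR2L12, a nuclear copy of mitochondrial ribosomal sequence, had 31220 and 0 in the PC3 samples and 43.7 and 48.8 in LNCaP, so its rank rests on 1 sample. VIMP and SELT in PC3, SELM and SELK in LNCaP and GPX4 in PC3, all selenoproteins, were also among the 10 highest of a line when mitochondrially encoded genes were left out.

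The line difference was then read in the hypoxic control samples, which the normoxic comparison did not use but which come from the same tables, transfection and vector. In hypoxia 12571 genes were tested, 3282 (26.1%) were higher in PC3 and 3490 (27.8%) in LNCaP. Of the normoxic calls, 2695 (82.8%) higher in PC3 and 2769 (83.7%) higher in LNCaP were called the same way, and 9 and 2 the other way. Of the hypoxic calls 82.1% and 79.3% were also normoxic calls. In the lists, 23 of the 25 androgen-related calls in LNCaP, 27 of 31 mesenchymal calls and 24 of 27 AP-1, YAP and TEAD calls in PC3 were found again, and all 16 cancer-testis calls. Shares were lower in some other lists, with 12 of 16 basal, 9 of 13 neuroendocrine and 9 of 13 pan-NET calls in PC3. In LNCaP, 15 of 20 lipid and polyamine calls and 8 of 12 steroid and retinoid calls were found again. KLK3 had 2873 and 2653 scaled RPKM in hypoxic LNCaP and was again listed at 0 in PC3. Whether a difference between normoxia and hypoxia exceeds the spread was not tested.

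**Figure D5:**
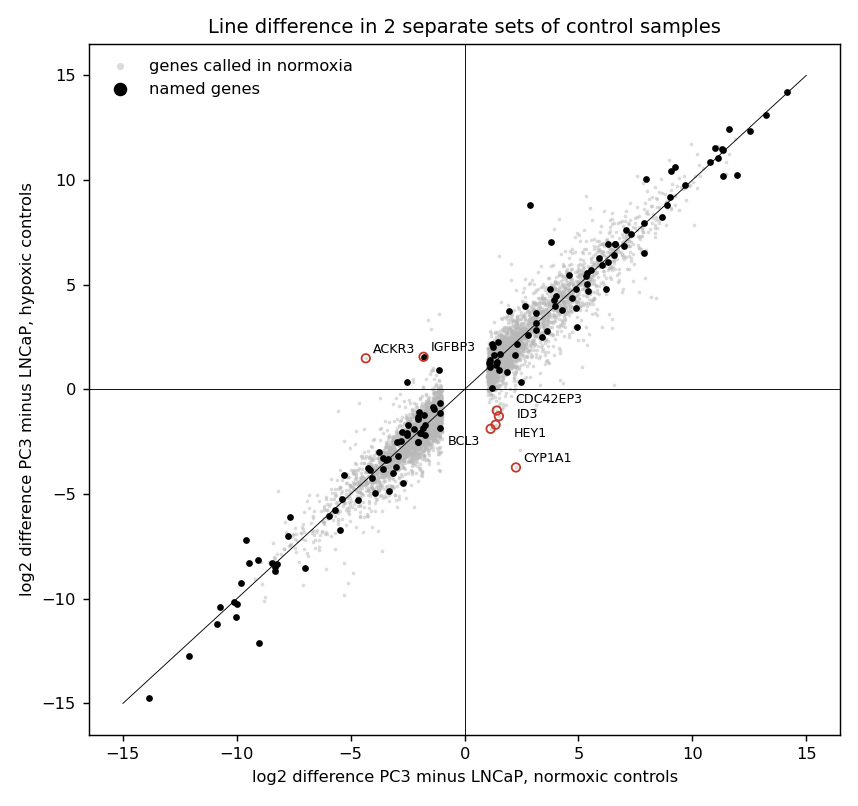
Log2 difference (PC3 minus LNCaP) in the normoxic controls (x axis) and the hypoxic controls (y axis) for genes called in normoxia (grey), with named genes in black and the line of equality, and without mitochondrially encoded genes, genes of the Y chromosome and XIST. Most points lie along the line, and the 7 genes ringed in red were called in opposite directions.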

How the data were processed

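RNA-Seq was analysed as deposited RPKM, which the authors made per gene with STAR 2.4.2a and Cufflinks 2.1.1, per the submitters' processing notes, on hg19. The LNCaP and PC3 tables were joined by symbol. Each sample was scaled to a common upper quartile (75%) over genes above 0 in any sample. Genes that reached 1 RPKM in 2 or more samples were tested with limma 3.58.1 (R 4.3.3) on log2(scaled RPKM + 0.1), which understates changes of low genes, with Benjamini-Hochberg adjustment over all tested genes. A call required a fold over 2 and an adjusted p under 0.05. Hypoxic controls were fitted separately. RPKM gives no counts, so counting error could not be set.

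Members and lists were chosen with earlier results of these data known. Named genes were marked list members, the called list member with the largest change in each direction, the 10 largest changes per direction at 10 RPKM or more, the 10 highest genes per line without mitochondrially encoded ones and the 5 highest factors within 0.5. CpG counts, cluster, neighbour and further list genes were named after their values were seen. Alternatives covered scaling, pseudocount, filter, fold, trend, replicate block and single samples left out. The fit was tested on simulated data of 12567 genes, recovering 77 of 100 genes changed 4-fold and 91 of 100 changed 8-fold. It also called 4 unchanged genes. The simulated lines had few changed genes and no difference in scale, so this does not test the scaling. Scripts used Python 3.11.15, NumPy 2.4.6, pandas 2.3.3 and matplotlib 3.10.9. Gene coordinates are on GRCh37 and promoter coordinates on GRCh38.p14, and the builds were not mixed. Some genes of the lists are not reported here, although the counts of the lists include them.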

Additional observations from a re-analysis of the deposited data

Results flagged for a closer look

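In 11 genes the lines differed in opposite directions in the normoxic and the hypoxic controls, both past the call limits of limma with Benjamini-Hochberg adjustment, and 4 of these rest on values listed at 0. The difference between the oxygen levels itself was not tested. The log2 difference (PC3 minus LNCaP) in normoxia was -4.34 for the chemokine receptor ACKR3 and 1.49 in hypoxia, and -1.80 for IGFBP3, a binding protein of insulin-like growth factors, and 1.56 in hypoxia. The other way round, it was 1.14 in normoxia and -1.88 in hypoxia for the NF-kB regulator BCL3, 1.41 and -1.01 for CDC42EP3, a partner of the GTPase CDC42, and 2.25 and -3.73 for CYP1A1, a target of the aryl hydrocarbon receptor. For the Notch target HEY1 it was 1.36 and -1.69, and for ID3, an inhibitor of helix-loop-helix factors, 1.504 and -1.28.

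ACKR3 had 1.83 and 2.84 scaled RPKM in normoxic PC3 and 47.8 and 65.7 in hypoxic PC3, while LNCaP had 42.4 and 54.6 in normoxia and 20.5 and 19.4 in hypoxia. The values of the lines did not overlap in either condition.

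The remaining 4 genes are mitochondrially encoded and were listed at 0 in both normoxic LNCaP samples, so their normoxic differences depend on the pseudocount. An exact 0 beside such levels can be a failed estimate, so these are fitted values and are read neither as folds nor as a change of direction. The fitted differences in normoxia and hypoxia were 15.52 and -1.98 for MT-ATP6, 17.52 and -3.13 for MT-ATP8, 15.85 and -1.19 for MT-ND4 and 16.04 and -1.05 for MT-ND4L.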

How the results depend on the processing

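The counts of calls depended on how the tables were put on a common scale. Without scaling, 1886 genes were higher in PC3 and 5858 in LNCaP (hypoxia 1792 and 6219). Scaling to uniform genes gave 4864 and 2159, and 1886 and 2159 held under all 4 scalings, an alternative chosen after seeing the data. At a fold over 4 the counts were 1734 and 1599 (hypoxia 1736 and 1786). Leaving out 1 sample at a time gave 2248 to 3299 genes higher in PC3 and 2281 to 3334 higher in LNCaP, and in hypoxia 2379 to 3291 and 2321 to 3538. The lowest of the last, 2321, was the count without LNCaP replicate 1. By construction a gene expressed in a line with 1 sample left no longer reaches the expression limit in 2 samples, which lowers these counts, and gives no value for the cancer-testis genes. With the tested genes kept, an alternative chosen after seeing the data, the counts were 3161 to 3244 and 2931 to 3285, and in hypoxia 3166 to 3324 and 3053 to 3523. These fits assume that the lone sample varies like the other line. Replicate numbers did not pair the samples (correlation of deviations 0.014), and a replicate block gave 3270 and 3336 calls (hypoxia 3300 and 3516). MTRNR2L12, not called (log2 difference 0.27), reversed to -9.03 without PC3 replicate 1 and was 9.40 without PC3 replicate 2, since it had 31220 and 0 in the PC3 samples. Of 179 named genes tested, 145 were called and 124 kept the call in every alternative that gave a value. With a pseudocount of 1 the medians of lists with many genes near 0 in a line shrank by over 1.5 times, to 3.37 for mesenchymal, 2.30 for basal, 1.74 for HOX, 1.54 for neuroendocrine and 1.61 for inflammatory genes. Line, table and transfection or vector change together, so a line difference cannot be separated from a table difference by any of these settings. Depth is not given, and levels near 0 are limited by it.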

Other observations

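Some genes were listed at 0 throughout a line, a pattern chosen after the values were seen. With genes of the Y chromosome left out, 51 genes were at 0 in all 8 RNA-Seq samples of PC3 and at 1 RPKM or more in all 8 of LNCaP, and 17 genes were the reverse. Several are neighbours on GRCh37. On chromosome 17, between 40265129 and 40463961, KAT2A, a histone acetyltransferase, had 38.1 and 36.97 scaled RPKM in normoxic LNCaP, RAB5C had 117 and 105.1, and STAT5B, a transducer of cytokine signals, had 9.88 and 10.4. STAT3, which was at 0 in both normoxic PC3 control samples, lies next to this run. On chromosome 11, between 85668218 and 86383678, PICALM had 205 and 173 and EED, a subunit of the Polycomb complex, had 11.3 and 10.02. In LNCaP the chemokine genes CXCL6 and CXCL1 on chromosome 4, between 74702357 and 74853907, were at 0, with 17.7 and 16.1, and 4.21 and 3.85, in normoxic PC3. Runs of GAGE and MAGEA genes were also at 0 in PC3, but these are near-identical copies whose counts are uncertain. The number of copies of these regions was not measured.

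By chromosome, with the Y chromosome left out, the median log2 difference (PC3 minus LNCaP) ran from -0.57 on chromosome 16, where 74 of 535 tested genes were higher in PC3 and 192 in LNCaP, to 0.89 on chromosome 20, with 151 and 40 of 337. On chromosome 8 it was 0.54, with 158 and 96 of 409. Chromosome X had the largest share of genes higher in LNCaP, 166 of 443 (37.5%). Over all tested genes 25.9% were higher in PC3 and 26.3% in LNCaP. Whether these shares follow the copy number of the chromosomes was not tested.

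Selenoproteins, a list made after the values were seen, included several of the highest genes. Of 25 listed genes 22 were tested, and 8 in PC3 and 9 in LNCaP were among the 100 genes with the highest levels, mitochondrially encoded genes included, out of 12567 tested genes. Some levels varied widely between the samples of a line, such as TXNRD2 in PC3 with 1724 ± 918 scaled RPKM (mean ± SD, n = 2). Whether the levels of these genes reflect their transcripts or the way they were quantified was not tested.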
